A study of Drosophila melanogaster with 19 samples.

Results

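The comparison described here asks what the zinc finger factor Senseless (Sens) adds when the proneural factor Achaete (Ac) is also over-expressed in the developing notum of Drosophila, the dorsal thorax on which sensory bristles form. Its members are the 3 arrays labelled Ac+Sens and the 2 arrays labelled Ac, chosen by their titles, so 5 of the 19 arrays of the series, read across all 18769 probe sets. Pupae were dissected at 16 h after puparium formation, and each array held RNA from a pool of 8 to 12 notums. Every group carried the driver sca-Gal4, which follows the regulatory sequences of scabrous, together with tub-Gal80ts, a temperature-sensitive repressor of the driver. Crosses were kept at 18 °C and moved to 29 °C for the last 6 h. The Ac group added UAS-Ac, the Ac+Sens group added UAS-Ac and UAS-Sens, the Sens group added UAS-Sens (3 arrays), and the GFP control added UAS-GFPnls (3 arrays), a nuclear green fluorescent protein. The remaining 8 arrays hold Asense (Ase, 3), E(spl)m3-HLH (m3, 3) and both (Ase+m3, 2). The 3 arrays of a condition are called biological replicates in the protocols, and 2 arrays of Ac were analysed here. Levels are log2 probe set signals, and differences are on the log2 scale, so that a difference of 1 is a doubling of the signal. Since driver expression is limited to part of the tissue and whole notums were pooled, a change in the number of cells of a type and a change of RNA per cell cannot be told apart.

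Sensory bristles come from sensory organ precursors, single cells selected from clusters of cells that express the proneural genes. Achaete and its neighbour Scute are basic helix-loop-helix activators that make cells competent, and lateral inhibition through Notch restricts the fate to a single cell of the cluster. Senseless accumulates in the selected cell, where it enhances proneural activity and represses other genes by binding DNA through its zinc fingers. The precursor then divides asymmetrically to form the shaft, socket, sheath and neuron of the bristle.

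Both transgenes were looked at first. The sens probe set read 7.32 and 6.92 on the Ac arrays and 10.91, 10.62 and 11.36 on the Ac+Sens arrays, a rise of 3.84 (SE 0.68, 14.3-fold, adjusted p = 0.0482). All Ac+Sens arrays lay far above both Ac arrays, which were near the GFP arrays (7.16 to 7.55). The sc probe set, for the proneural factor next to ac, was at 10.37 and 10.42 in Ac and at 10.17, 10.05 and 10.77 in Ac+Sens. These groups overlapped, and both stood above the GFP arrays, which read 6.95 to 7.28. The difference in sc between Ac+Sens and Ac was −0.06 (SE 0.72, 95% interval −1.59 to 1.46, adjusted p = 0.99). The ac probe set itself read 6.74 and 6.87 in Ac, 6.56, 6.87 and 7.47 in Ac+Sens, and 6.63 to 7.27 in GFP, so the 3 groups overlapped. No source used here says where the ac probes lie relative to the transgene, so the ac level does not check the labels. No label names sc.

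One array of the Sens group went against its label in sens, and it differed from the other Sens arrays in sc. The array labelled Sens replicate 1 read 7.38 for sens and 10.63 for sc, while the other 2 Sens arrays read 10.76 and 10.75 for sens and 7.17 and 6.84 for sc. In achi (5.36 against 5.43) and CG10151 (5.34 against 5.52) that array read with Sens replicate 2, above all Ac and GFP arrays. It was thus not like the Ac arrays in every gene. It is no member of the comparison, but it enters the spread that the fit shares over all groups, and results that rest on it are given with and without it. Without it the SE of the sens difference was 0.24 in place of 0.68 (adjusted p = 1.1e-06), and the interval of the sc difference narrowed to −0.54 to 0.40. Among the 5 arrays, Spearman correlations over the 7284 probe sets with a value on all 19 arrays ran from 0.9492 (Ac+Sens replicates 1 and 3) to 0.9916 (both Ac arrays). Ac+Sens replicate 3 lists 11330 probe sets at exactly 0, read here as missing, so dim genes have n = 2 in both groups. Over the genes with a value on the array, deviations from the median array had a Spearman correlation with gene length of −0.445 on Ac+Sens replicate 3 and 0.217 on replicate 1. In 4 classes of genes by length, the median difference between Ac+Sens and Ac was −0.005 to −0.022.

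Few genes passed the test when Sens was added to Ac, and the number depends on the arrays that share the spread. Of 18769 probe sets, 15 (0.0799%) passed the test in limma at an adjusted p under 0.05, 9 higher (0.048%) and 6 lower (0.032%), while 1839 (9.8%) had an unadjusted p under 0.05. They name 13 of 11982 genes (0.108%): sens, spdo, qua, yellow-d, achi, CG10151, CG13062 and CG15740 rose (0.0668% of genes higher), and vis, Zip102B, Cpr5C, Nha1 and CG30088 fell (0.0417% lower). The probe sets 1637965_at, which rose, and 1625698_at, which fell, carry no single gene name. In all 15 the Ac and Ac+Sens arrays did not overlap. Since the 15 were picked by their difference between these arrays, this is a description only. Of all genes, 13.9% had every Ac+Sens array higher and 14.7% every one lower. Of the 15, 7 had a value on all 5 arrays and 8 lacked one on Ac+Sens replicate 3. The 13 genes lie on X (2, where 15.6% of all genes lie), 2L (2, 18.4%), 2R (5, 20.3%), 3L (2, 19.6%), 3R (1, 24.8%) and 4 (1, 0.542%).

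**Figure D1:**
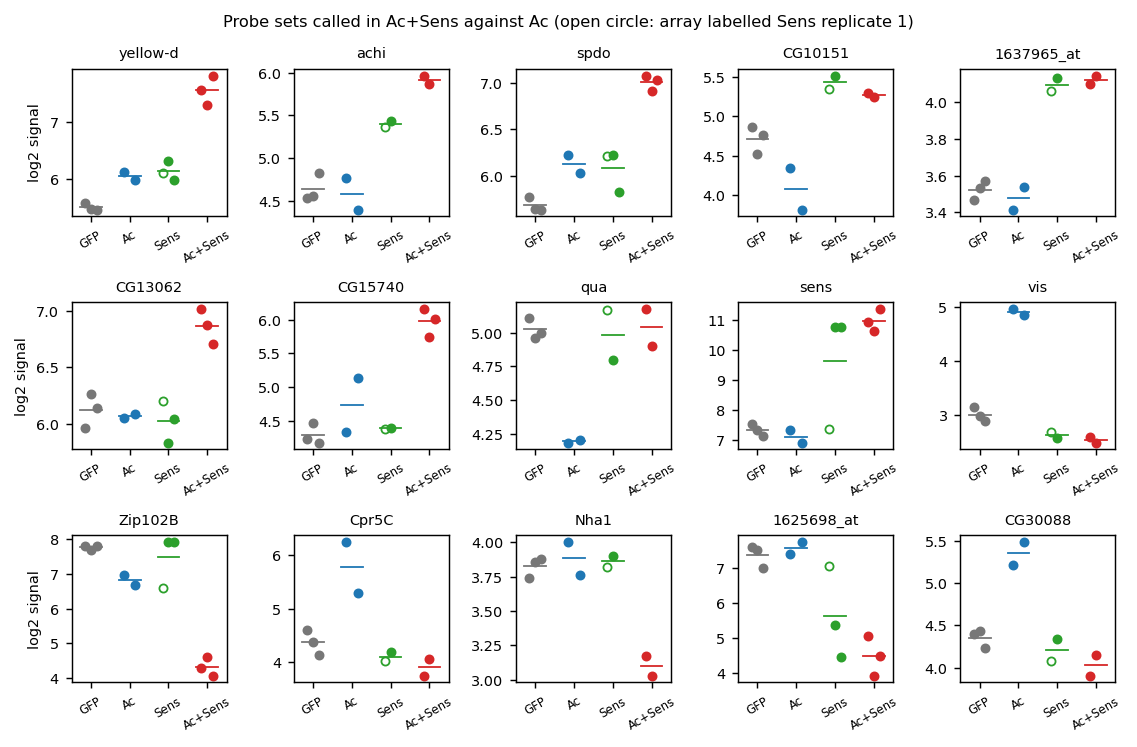
Levels (log2 signal, y axis) of the 15 probe sets called in Ac+Sens against Ac, with 1 point per array for GFP, Ac, Sens and Ac+Sens and a line at each group mean. The open circle is the array labelled Sens replicate 1, and no Ac+Sens point overlaps an Ac point; sens stands at 10.62 to 11.36 in Ac+Sens against 6.92 and 7.32 in Ac.

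**Figure D2:**
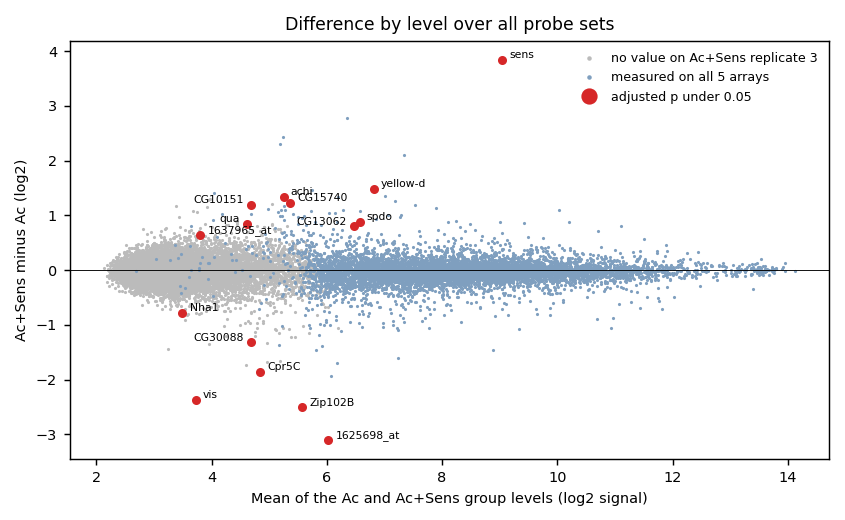
Difference between Ac+Sens and Ac (log2, y axis) against the mean of both group levels (log2 signal, x axis) for all 18769 probe sets. Red points are the 15 called probe sets, from −3.09 (1625698_at) to 3.84 (sens), and grey points lack a value on Ac+Sens replicate 3.

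Of the 33 measured genes on a list of 41 proneural and precursor genes, 3 rose (spdo, qua and the transgene sens) and none fell. Over all 11982 genes 0.0668% rose and 0.0417% fell. Of the alternative settings that gave a value, spdo missed the threshold in 6 of 23, sens in 14 of 23 and qua in 13 of 20. For sens and qua these settings include leaving out each GFP, Ac and Ac+Sens array in turn. With 1 array left out, the highest adjusted p was 0.186 for spdo, 0.25 for sens and 0.207 for qua, and all 3 kept their direction. In 13 of the 33 (39.4%, against 13.9% of all genes) every Ac+Sens array lay above both Ac arrays, and in none every one lay below (against 14.7%). The median difference was 0.165, against −0.015 over all genes. In the mean 28 of 33 were higher, against 5548 of all 11982 genes. Among the 23 list members with a value on all 5 arrays, 9 (39.1%) had all Ac+Sens arrays higher, against 8.76% of all 6207 such genes, of which 9.96% had all lower. Leaving out ac, sens and ase, 2 of 30 rose, 11 (36.7%, against 13.9% of all genes) had all Ac+Sens arrays higher, and the median was 0.158. The markers sens, phyl, neur, ase, sc and cpo, summed, stood at 11.18 and 11.34 in Ac and at 12.16, 11.96 and 12.49 in Ac+Sens, and this sum includes the sens transgene.

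The gene spdo (sanpodo) encodes a membrane protein that Notch needs for signalling between the daughters of asymmetric divisions. It read 6.22 and 6.03 in Ac and 7.08, 6.92 and 7.03 in Ac+Sens, so the groups stood apart. The rise was 0.88 (SE 0.13, 1.84-fold, adjusted p = 0.0169), and spdo was lower in GFP, at 5.63 to 5.76. The gene qua (quail), which encodes a villin-like protein that bundles actin, read 4.18 and 4.20 in Ac and 5.18 and 4.91 on the Ac+Sens arrays with a value. It rose by 0.85 (SE 0.13, adjusted p = 0.0482), but the GFP arrays, at 4.96 to 5.11, were at the Ac+Sens level, so it is the Ac arrays that stood low.

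Other precursor genes had separate groups without passing the test. The gene meru, which encodes a RASSF-family protein that links planar and cortical polarity in the precursor, read 6.96 and 6.91 in Ac and 8.03, 7.92 and 8.43 in Ac+Sens. Its difference of 1.19 (SE 0.21) had an adjusted p of 0.0526, of 0.0222 without the array labelled Sens replicate 1 and of 0.0269 without both Ase+m3 arrays. For phyl (phyllopod), an adaptor that directs the repressor Tramtrack to degradation, the Ac arrays read 6.82 and 6.74 and the Ac+Sens arrays 7.72, 7.71 and 7.83. All lay above the GFP arrays (5.21 to 5.81), and the difference of 0.98 (SE 0.24) had an adjusted p of 0.117. The ubiquitin ligase gene neur (neuralized), which acts on the Notch ligand Delta, read 8.98 and 9.39 in Ac and 9.93, 9.58 and 9.84 in Ac+Sens (difference 0.60, SE 0.17, adjusted p = 0.194). The helix-loop-helix gene cato differed by 0.79 (SE 0.18, adjusted p = 0.11), ase by 0.69 (SE 0.28, adjusted p = 0.429), and the BEN-domain repressor gene insv by 0.48 (SE 0.16, adjusted p = 0.293). The gene edl, which encodes a modulator of ETS-domain factors, differed by 0.32 (SE 0.09, adjusted p = 0.223). The proneural genes ato, amos and l(1)sc, which serve other sense organs or the embryo, had differences of 0.01, 0.02 and 0.20 with overlapping arrays.

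**Figure D3:**
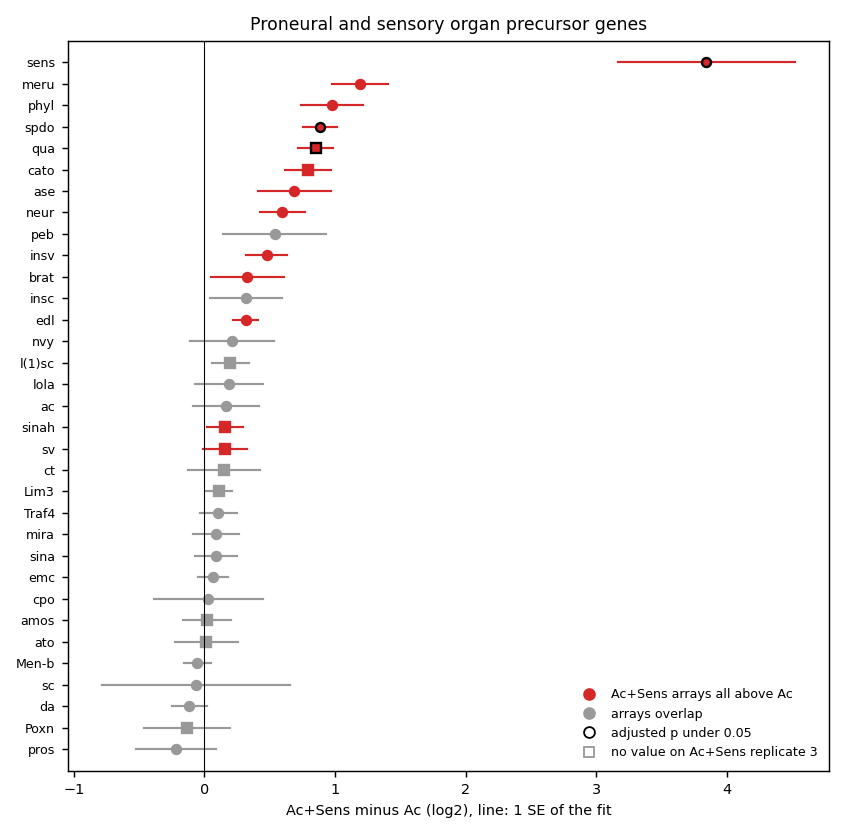
Difference between Ac+Sens and Ac (log2, x axis) with a line of 1 SE of the fit for the 33 measured proneural and sensory organ precursor genes, in order of the difference. Red marks the 13 genes whose Ac+Sens arrays all lie above both Ac arrays, black outlines mark the 3 called genes, squares lack a value on Ac+Sens replicate 3, and pros (−0.22) is the lowest.

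On the Notch side of the pathway a single gene passed the test. Among 21 measured Notch pathway genes, spdo, which is also on this list, rose and none fell, and the median was −0.053. None of the 13 measured E(spl) and Bearded genes, targets and inhibitors of Notch, passed the test, and their median was 0.095. The Bearded family gene Ocho read 7.17 and 6.79 in Ac and 6.25, 6.30 and 6.17 in Ac+Sens, a difference of −0.74 (SE 0.23, adjusted p = 0.249). The Bearded family gene E(spl)m4-BFM read 8.05 and 7.54 in Ac and 8.15, 8.04 and 9.87 in Ac+Sens, with overlapping groups. Its difference was 0.89 (SE 0.62, adjusted p = 0.737). Not on either list, insb, which encodes a nuclear inhibitor of Notch, read 4.36 and 4.94 in Ac and 5.66, 5.46 and 6.12 in Ac+Sens (difference 1.10, SE 0.21, adjusted p = 0.0748). Of 20 genes of asymmetric division and polarity, only spdo passed, and 6 had all Ac+Sens arrays higher (30%, against 13.9% of all genes) and none all lower (against 14.7%). Of these 6, spdo, meru and brat are also on the precursor list, so the lists are not separate. Among the 19 with a value on all 5 arrays, 31.6% had all higher, against 8.76% of all such genes. Of 14 EGFR signalling genes none passed, with a median of 0.006.

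The neighbouring genes vis and achi, which encode closely similar TALE homeodomain proteins, moved in opposite directions. The vis probe set read 4.96 and 4.85 in Ac and 2.59 and 2.49 on the Ac+Sens arrays with a value, so the groups stood far apart. It fell by 2.37 (SE 0.11, 5.16-fold, adjusted p = 1.74e-06). Among the 4 groups only Ac was high: the GFP arrays read 2.88 to 3.15, and Sens replicates 1 and 2 read 2.68 and 2.58, with no value on replicate 3. The achi probe set read 4.77 and 4.39 in Ac and 5.96 and 5.87 in Ac+Sens, a rise of 1.33 (SE 0.14, adjusted p = 0.00462), with GFP at 4.53 to 4.82. No protein-coding gene lies between them on 2R in the RefSeq table. Since the copies are alike and each has 1 probe set, how far the probes tell them apart is uncertain.

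Pigment and cuticle genes included a called member and several close to the threshold. The gene yellow-d, of the family of the pigment gene yellow, read 6.14 and 6.00 in Ac and 7.56, 7.29 and 7.81 in Ac+Sens. It rose by 1.49 (SE 0.13, 2.8-fold, adjusted p = 0.000152), and the GFP arrays (5.48 to 5.58) lay below both groups. For dy (dusky), which encodes a zona pellucida domain protein of the apical surface, the Ac arrays read 5.35 and 4.69 and the Ac+Sens arrays 6.49, 6.32 and 6.61 (difference 1.46, SE 0.25, adjusted p = 0.0526). The related gene dyl differed by 0.77 (SE 0.17, adjusted p = 0.11) and y itself, needed for black pigment, by 0.68 (SE 0.12, adjusted p = 0.0646). Of 26 measured genes on the pigment and cuticle list, 1 rose and none fell, 7 (26.9%, against 13.9% of all genes) had all Ac+Sens arrays higher and 2 all lower, and the median was 0.098. Of its 14 genes with a value on all 5 arrays, 2 (14.3%, against 8.76%) had all higher. The cuticular protein gene Cpr5C, not on this list, read 6.24 and 5.30 in Ac and 3.75 and 4.06 in Ac+Sens. It fell by 1.86 (SE 0.24, adjusted p = 0.0236), with the GFP arrays at 4.15 to 4.61. On the list of bristle shaft, socket and actin genes, qua was the only 1 of 21 to pass, and Fim, the actin bundler fimbrin, differed by 0.45 (SE 0.13, adjusted p = 0.209).

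Transporter genes were among the falls. Zip102B, a zinc transporter gene of the ZIP family, read 6.97 and 6.67 in Ac and 4.29, 4.59 and 4.07 on the 3 Ac+Sens arrays, all far below both Ac arrays. It fell by 2.51 (SE 0.28, 5.68-fold, adjusted p = 0.00115), while GFP was higher than both, at 7.69 to 7.81. Of 28 zinc and metal transport genes, only Zip102B passed; 10 (35.7%, against 14.7% of all genes) had all Ac+Sens arrays lower and 3 (10.7%, against 13.9%) all higher, and the median was −0.093. The sodium/proton antiporter gene Nha1 read 4.002 and 3.764 in Ac and 3.17 and 3.03 in Ac+Sens (−0.78, SE 0.11, adjusted p = 0.0311), below GFP (3.74 to 3.87). Vmat, the vesicular monoamine transporter gene, was at 6.16 and 5.96 in Ac and at 4.74 and 4.95 in Ac+Sens (−1.22, SE 0.22, adjusted p = 0.0646). Its other probe sets, all dimmer, differed by −0.585, 0.066 and 0.162, so not all of them fell.

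The other called genes have no described role here. CG10151 read 4.34 and 3.82 in Ac and 5.30 and 5.24 in Ac+Sens (1.19, SE 0.16, adjusted p = 0.0311). CG13062 read 6.05 and 6.09 in Ac against 7.02, 6.88 and 6.71 in Ac+Sens (0.80, SE 0.14, adjusted p = 0.0436). CG15740 read 4.34 and 5.14 in Ac against 6.16, 5.75 and 6.01 in Ac+Sens (1.23, SE 0.19, adjusted p = 0.0436). In these 3 genes every Ac+Sens array was above all Ac and all GFP arrays. CG30088 read 5.21 and 5.49 in Ac and 3.90 and 4.15 in Ac+Sens (−1.32, SE 0.20, adjusted p = 0.0466). Probe set 1637965_at, with no gene name here, read 3.42 and 3.54 in Ac and 4.10 and 4.14 in Ac+Sens (0.65, SE 0.09, adjusted p = 0.0385). Probe set 1625698_at, annotated to several genes, read 7.40 and 7.75 in Ac and 5.04, 3.92 and 4.49 in Ac+Sens (−3.09, SE 0.52, adjusted p = 0.0392).

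No gene was called on the sensory cilium and neuronal lists or on those for other cell types. None of 20 sensory cilium genes (median 0.062), 23 neuronal genes (0.073) or 18 notum patterning factors (−0.108) passed the test. None of 23 cell cycle genes passed (0.087), and 5 (21.7%) had all Ac+Sens arrays higher, against 8.76% of all genes with a value on all 5 arrays, as these 23 have, among them aurB and CycE at 0.34 and 0.43. In 34 cytochrome P450 and detoxification genes no call was made; 9 (26.5%, against 14.7% of all genes) had all Ac+Sens arrays lower, led by Cyp6a17 at −1.45 (SE 0.25, adjusted p = 0.0646), and the median was −0.133. Of the 9 on that list with a value on all 5 arrays, 11.1% had all lower, against 9.96% of all such genes. None of 23 immune genes (0.165), 22 ecdysone response genes (0.148), 13 cell death genes (−0.035), 12 heat shock chaperones (0.016), 19 muscle genes (−0.124), 16 haemocyte genes (−0.092), 12 fat body genes (−0.072), 9 trachea genes (0.04) or 11 glia genes (0.021) passed. All Ac+Sens arrays were higher in 30.4% of the neuronal and 26.1% of the immune genes, against 13.9% of all genes. Among those with a value on all 5 arrays this held in 0 of 7 and in 7.69% of 13, against 8.76% of all such genes. In the muscle genes all were lower in 21.1% (against 14.7% of all genes), and in 22.2% of the 18 on all 5 arrays (against 9.96%).

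The summed signal of 7 notum factors (among them pnr, ara, caup and tup) was 11.66 and 11.69 in Ac and 11.64, 11.73 and 11.26 in Ac+Sens. Markers of other tissues moved between arrays of the same group: 6 haemocyte markers summed to 8.47 and 9.02 in Ac and to 9.28, 8.47 and 7.97 in Ac+Sens. The 4 fat body markers summed to 12.27 and 12.7 in Ac and to 13.3, 11.98 and 12.04 in Ac+Sens, and the 4 tracheal ones to 12 and 11.9 against 12.05, 11.53 and 12.31. Sums of 3 muscle markers (11.57 to 11.9) and 4 glial markers (9.92 to 10.22) varied less, and 4 neuronal ones ran from 8.19 to 9.73. On Ac+Sens replicate 3 these sums miss 3 haemocyte, 1 fat body, 1 tracheal and 2 neuronal markers listed at 0. No group of these sums stood apart between Ac and Ac+Sens except that of the precursor markers. That sum includes the sens transgene, and it was not computed without sens. The part of all these markers in the results was not tested.

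The difference between Ac+Sens and Ac was set beside that without Ac, Sens minus GFP, which shares no array with it. The groups carry different transgenes, so Sens and any other difference between their crosses cannot be told apart. Against GFP, 52 probe sets (0.277%) passed with all 3 Sens arrays and 41 (0.218%) without the array labelled Sens replicate 1. The 15 called probe sets had the same direction in both settings of Ac in 12 cases, and in 11 without that array. Over all 11982 genes, 6435 had the same direction, and 6491 without that array. The 15 include sens itself, which is over-expressed by design in both Sens and Ac+Sens. Across the 15, chosen by 1 of the axes, the Spearman correlation was 0.914 and 0.732, and across all 11982 genes 0.156 and 0.182. Over the 6207 genes with a value on all 5 arrays it was 0.058 and 0.126. Genes of a sample share their arrays and are not independent. The difference of the differences passed the test for 8 probe sets (0.0426%), or 11 (0.0586%) without that array, and of the 15 it passed for vis alone, or for vis and Zip102B. It was −1.99 for vis (adjusted p = 7.05e-05), and −1.94 without the array labelled Sens replicate 1 (adjusted p = 0.000855).

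Zip102B joined vis when the array labelled Sens replicate 1 was left out. On the Sens arrays it read 6.60 (replicate 1), 7.91 and 7.93, near GFP on the last 2. The interaction was −2.21 (adjusted p = 0.0604) with all arrays and −2.66 (adjusted p = 6.11e-06) without replicate 1. Sens minus GFP was −0.29 with all arrays and 0.15 without replicate 1. The remaining called genes did not pass this test. Without the array labelled Sens replicate 1, yellow-d differed by 0.64 and spdo by 0.34 in Sens against GFP. On 1 Sens array each, achi differed by 0.795, CG10151 by 0.80 and CG15740 by 0.10. Opposite in direction to their difference with Ac present were CG13062 (−0.19) and, on 1 Sens array each, qua (−0.23) and Nha1 (0.08). Probe set 1625698_at fell in both settings, by 2.45 in Sens against GFP without the array labelled Sens replicate 1 (adjusted p = 0.00311), where the difference with all arrays was −1.73.

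**Figure D4:**
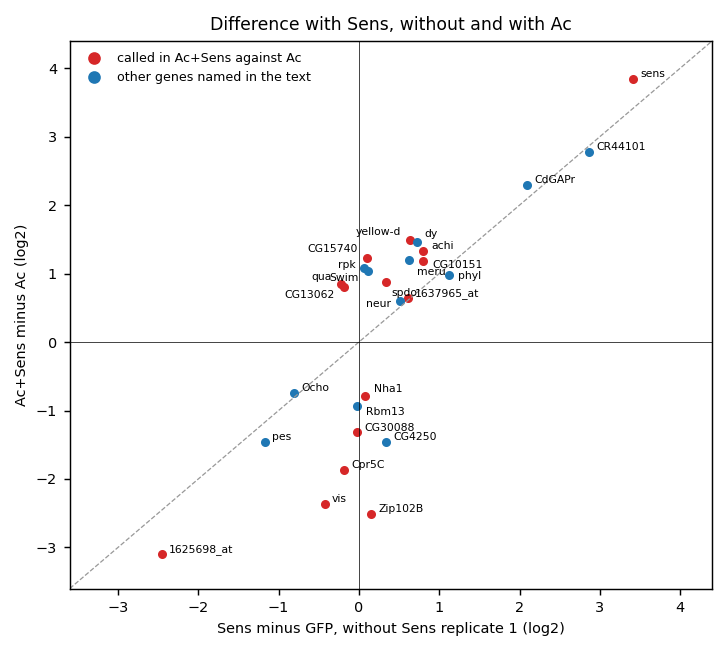
Difference between Ac+Sens and Ac (log2, y axis) against Sens minus GFP without the array labelled Sens replicate 1 (log2, x axis), for the 15 called probe sets (red) and 12 other genes named in the text (blue), with a dashed line at equal differences. CdGAPr (2.09, 2.30) and CR44101 (2.87, 2.78) lie near the line, and vis (−0.43, −2.37) and Zip102B (0.15, −2.51) far below it. Genes with no value on Sens replicate 3, vis among them, rest on 1 Sens array on the x axis.

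Leaving out the array labelled Sens replicate 1 gave 37 called probe sets (0.197%), the 15 above among them. They name 17 genes that rose (0.142% of genes) and 13 that fell (0.108%), and 17 of these 30 were not called with all arrays. CdGAPr read 4.20 and 3.87 in Ac and 6.41, 6.28 and 6.32 in Ac+Sens. The array labelled Sens replicate 1 read 3.74, and the other Sens arrays read 5.96 and 6.08. The difference of 2.30 had an adjusted p of 0.0754 with all arrays and of 2.97e-05 without that array. The noncoding gene CR44101 read 4.53 and 5.40 in Ac and 7.05, 7.68 and 8.50 in Ac+Sens (2.78, adjusted p = 0.219, and 0.00706 without the array). That array read 4.32, and the other Sens arrays read 8.05 and 7.98. The scavenger receptor gene pes read 6.48 and 6.59 in Ac and 5.11, 4.87 and 5.26 in Ac+Sens (−1.46, adjusted p = 0.0646, and 2.97e-05 without the array). In each of these 3 genes the array labelled Sens replicate 1 was near the Ac and GFP arrays and the other Sens arrays were near Ac+Sens.

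In further genes called without that array, the GFP arrays lay on the Ac+Sens side. Rbm13 read 6.98 and 6.76 in Ac, 5.82, 5.91 and 6.07 in Ac+Sens and 5.75 to 6.00 in GFP (−0.94, adjusted p = 0.0754, and 0.000576 without the array). The array labelled Sens replicate 1 read 6.76 for it. The channel gene rpk, of the DEG/ENaC family, read 5.30 and 5.07 in Ac, 6.20, 6.18 and 6.45 in Ac+Sens and 6.38 to 6.54 in GFP (1.09, adjusted p = 0.173, and 0.0222 without the array). Swim, which encodes a secreted Wingless-interacting protein, differed by 1.04 (adjusted p = 0.0875 and 0.0293), and CG4250 by −1.46 (adjusted p = 0.133 and 0.0252). For Rbm13, rpk, Swim and CG4250 the array labelled Sens replicate 1 lay with the Ac arrays. Since the 17 genes were picked by leaving that array out, its place among them is a description only. Of the 17, 14 had values on all 5 arrays of Ac and Ac+Sens.

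**Figure D5:**
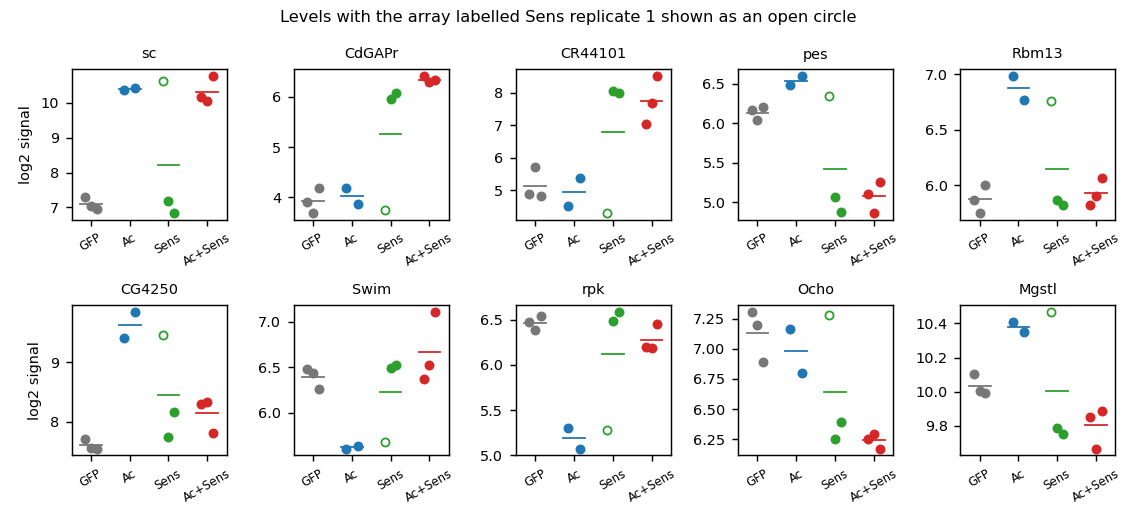
Levels (log2 signal, y axis) of sc and 9 other genes on the GFP, Ac, Sens and Ac+Sens arrays, with 1 point per array and a line at each group mean, which for Sens includes all 3 arrays. The open circle, the array labelled Sens replicate 1, is at 10.63 for sc and 3.74 for CdGAPr, near the Ac arrays, while the other Sens arrays are at 6.84 and 7.17 and at 5.96 and 6.08.

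The spread that the fit shares also took in the 2 Ase+m3 arrays, which have the lowest weights when arrays are weighted. Without them 62 probe sets were called (0.33%), the 15 above among them, with 23 genes higher (0.192%) and 27 lower (0.225%). Besides meru and dy, the gene y (adjusted p = 0.0458), Cyp6a17 (adjusted p = 0.0305), Cyp309a2, another P450 gene (−1.14, adjusted p = 0.0258), and the snoRNA host gene Uhg3 (−0.92, adjusted p = 0.0269) then passed. The precursor list had 4 genes higher, with meru added, both without these arrays and without the array labelled Sens replicate 1.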

How the data were processed

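Affymetrix arrays were measured in 19 pools of notums. The deposited log2 probe set signals come from RMA (background correction, normalization between arrays and probe summary), per the submitters' processing notes, whose version no source used here gives. Values of exactly 0 (4 arrays, about 60.3% to 60.6% of probe sets) were read as missing. Of 18769 probe sets, 13647 name 1 gene by the platform annotation, 402 several and 4720 none. Each of 11982 genes was read from its brightest probe set on average over the 15 arrays that hold no zeros.

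The model was fitted in R 4.3.3 with limma 3.58.1 (lmFit, eBayes), with 1 mean for each of the 7 groups over all 19 arrays, two-sided, and adjusted by Benjamini-Hochberg over all probe sets. An adjusted p under 0.05 was called, and every adjusted p comes from this model or, where arrays are said to be left out, from its refit without them. The scripts were tested on simulated data. No detection calls or scan dates were used, so background and batches were not tested, and the number of arrays limits the precision. The rule for named genes allowed the transgenes, all called genes, the 15 next genes in each direction, leading list members, and genes called in the interaction or only without Sens replicate 1 or Ase+m3, of which the text gives a part; ato, amos, l(1)sc, pros and CG17999 were added after their values were seen. The comparison, the members and the lists were chosen with earlier results of these data known. Alternatives covered normalization, filters, array weights, the replicate block, a gene length trend and left-out arrays.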

Additional observations from a re-analysis of the deposited data

Results flagged for a closer look

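The difference between Ac+Sens and Ac, minus that between Sens and GFP, passed the test (limma, adjusted p under 0.05) for 8 probe sets (0.0426%). Without the array labelled Sens replicate 1 it passed for 11 (0.0586%). In 1 of the 8, vis (−1.99), the Ac arrays stood high, and the Ac+Sens arrays were below the GFP arrays. In the other 7 the difference between Ac+Sens and Ac was within ±0.46 on the log2 scale with an adjusted p of at least 0.513, and GFP was the group apart. The P450 genes Cyp4p2 and Cyp4p1 had interactions of 4.69 and 3.43, with Cyp4p2 at 8.43 to 8.50 on the GFP arrays and 3.81 to 4.07 on all Ac, Sens and Ac+Sens arrays. Hasp had 4.1, with GFP at 8.06 to 8.50 and the others at 4.24 to 4.57. The opposite held for Dred (−4.9), with GFP at 4.58 to 5.08 and the others at 8.64 to 9.43. For unc-13-4A (probe set 1633793_at, not the brightest of that gene) the value was −3.93, for probe set 1635020_s_at −1.08 and for probe set 1630934_at 2.39, where GFP was at 11.53 to 12.44 and the others at 9.06 to 10.30. Without the array labelled Sens replicate 1, Zip102B (−2.66) and Rbm13 (−0.91) were called too. CG17999 (−1.96) was also added, but its value then rested on 1 Sens array.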

How the results depend on the processing

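All 15 probe sets kept their direction in every setting that gave a value, and vis and Zip102B were called in each of theirs (20 and 23 settings). The count of 15 was 3 after a second quantile normalization, 2 over probe sets on all 19 arrays, 3 over those on all 5 arrays, 4 at a mean of at least 5, 8 without the 4 arrays with zeros, 5 from the 5 arrays alone, 26 with a gene length trend removed, 62 without both Ase+m3 arrays, 75 without these and Sens replicate 1, and 924 with array weights (0.1 for each Ase+m3 array, 0.349, 2.955 and 0.233 for Ac+Sens replicates 1 to 3). Leaving out 1 array gave 3 to 37: 3 without Ac+Sens replicate 2, 5 without its replicate 1, 6 without GFP replicate 1 or 3, 8 without Ac replicate 2, 9 without Sens replicate 2 and 37 without Sens replicate 1. The interaction count of 8 was 5 after quantile normalization, 4 on all 19 arrays, 3 at a mean of at least 5, 202 with array weights, 16 without the Ase+m3 arrays and Sens replicate 1, and 7 to 19 with 1 array left out (19 without GFP replicate 3). The 3 precursor genes were 0 after quantile normalization and without the 4 arrays with zeros, 1 on all 19 arrays, at a mean of at least 5, from the 5 arrays alone or on probe sets on all 5 arrays, 8 with array weights, and 0 to 4 with 1 array left out. The causes were not tested. The array weights came from limma's gene-by-gene method, because its default did not converge. The counts on all 5 arrays alone and of precursor genes were added after seeing the data.

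With the replicate number as a block, 8 probe sets were called, 7 of them shared with the 15, and 1 precursor gene. Deviations of same-numbered Ac and Ac+Sens arrays correlated at −0.38 and 0.085. The deviations of the 2 Ac arrays mirror each other, so these values cannot decide whether same-numbered arrays share a batch. The 4 arrays with zeros are replicate 3 of Sens, Ase, m3 and Ac+Sens.

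Uncalled differences changed sign for unc-13-4A (0.241) and obst-A (−0.05) with array weights and for Cyp4p2 (−0.031) after quantile normalization. With 1 array left out, sc ran from −0.287 to 0.074 (0.017 without Ac+Sens replicate 1, 0.074 without its replicate 2), ac from −0.088 (without Ac+Sens replicate 3) to 0.369, ara from −0.307 to 0.005 (without Ac+Sens replicate 3), zfh2 from −0.063 (without Ac replicate 1) to 0.962, nrv2 from −0.054 (without Ac replicate 1) to 0.338, and probe set 1635020_s_at from −0.002 (without Ac+Sens replicate 1) to 0.091. Without the 4 arrays with zeros, ac was at −0.088 and ara at 0.005.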
